A study of Mus musculus with 2 samples.

Results

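The microRNA genes Mir214, Mir199b, Mir199a-2 and Mir199a-1 were described in limb tissue of B6NCrl mouse embryos at embryonic day 14.5. They were taken from the count tables by their gene symbols, and they make up 4 of the 1973 microRNA genes listed there. The study sequenced RNAs shorter than 30 nucleotides from 1 group of 2 samples, named biological replicates 1 and 2 in the labels. Each sample was described as the 4 limbs of a pup, collected on different days, with the sex given as pooled and with the same donor label on both. Whether a sample held tissue of several embryos cannot be told, and the spread between the libraries may be partly technical. No genotype, treatment or other condition was compared, so the data give levels and the spread between 2 libraries.

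Mir199a-2 and Mir214 are carried by Dnm3os, a long noncoding RNA transcribed from the opposite strand of the dynamin 3 gene. In mouse embryos this transcript is known from mesenchyme of the limbs, the face and the perichondrium, and mice that lack it have defects in growth and in the skeleton. A microRNA precursor folds into a hairpin and can release a mature strand from its 5′ arm, its 3′ arm or both, and bases 2 to 8 of the mature strand, the seed, pair with target mRNAs. In mouse, miR-214 is known to repress Ezh2, a histone methyltransferase of the Polycomb group, in muscle cells, and Atf4, a transcription factor of osteoblasts. The Mir199 genes are vertebrate paralogs that lie opposite the dynamin genes.

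The tables count reads per gene, not per mature arm, and a read with several alignments was given to no gene. The sequences that bear on which reads could be counted are therefore shown first. They were compared among microRNA genes only, so alignments elsewhere in the genome were not examined. All 4 precursors and 7 mature arms were found in RefSeq (GRCm38.p6). In the mature strands below, written 5′ to 3′, capitals mark the seed.

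miR-214-3p: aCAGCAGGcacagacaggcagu

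miR-214-5p: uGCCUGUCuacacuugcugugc

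miR-199a-5p, identical in Mir199a-1 and Mir199a-2: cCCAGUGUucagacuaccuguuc

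miR-199a-3p and miR-199b-3p, identical in Mir199a-1, Mir199a-2 and Mir199b: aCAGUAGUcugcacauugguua

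These arms carry 4 distinct seeds. Outside the members, 1 other mature microRNA of the 1738 in RefSeq has one of these seeds, miR-761 of chromosome 4, which matches miR-214-3p in the seed and is shown to compare the remaining bases.

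miR-761: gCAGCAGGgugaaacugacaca

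Mir761 had 0 counts in both libraries. A count of 0 allows up to 3 counts, which correspond to 0.724 counts per 1000000 counts (CPM) in replicate 2 and to 0.651 in replicate 1. Among the genes that RefSeq lists with the miR-214-3p seed, Mir214 was thus the one with counted reads.

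Neither arm of Mir214 is listed at another gene, whereas each listed arm of the Mir199 genes is. The best match to miR-199a-5p in the Mir199b precursor lies at bases 26 to 48 and differs at 1 position, C10U, counted from the 5′ end of miR-199a-5p. The seed is the same in both. Both stretches are shown with the differing base in capitals.

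miR-199a-5p: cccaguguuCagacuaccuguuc

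Mir199b precursor, bases 26 to 48: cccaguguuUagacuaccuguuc

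The whole precursors follow, with the mature arms and, for Mir199b, the stretch above in capitals. They show how much of each precursor lies outside the shared strands.

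Mir214: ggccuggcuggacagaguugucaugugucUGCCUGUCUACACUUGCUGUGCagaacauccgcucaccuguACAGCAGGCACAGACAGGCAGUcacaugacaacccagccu

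Mir199b: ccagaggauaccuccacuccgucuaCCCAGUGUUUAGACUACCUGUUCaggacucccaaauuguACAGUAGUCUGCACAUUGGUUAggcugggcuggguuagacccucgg

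Mir199a-2: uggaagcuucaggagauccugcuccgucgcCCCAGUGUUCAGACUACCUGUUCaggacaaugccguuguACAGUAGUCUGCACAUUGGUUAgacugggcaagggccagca

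Mir199a-1: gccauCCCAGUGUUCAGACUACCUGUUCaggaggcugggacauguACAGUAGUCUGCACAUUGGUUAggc

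The precursor of Mir214 is 110 nucleotides long and holds no stretch of 22 nucleotides found in another microRNA gene of the tables. In Mir199b, 26.4% of the 110 bases lie in such stretches, all of them around the 3p arm. In Mir199a-2 the share is 49.1% of 110 bases, and in Mir199a-1 it is 78.6% of 70 bases, in blocks over both arms. Each of these stretches was shared with another Mir199 gene and with no gene outside the family. Among all 1894 genes with a precursor in GENCODE M21, 45.5% shared at least 1 stretch with another gene. The aligned precursors were 88.2% identical between Mir199a-1 and Mir199b, 84.8% between Mir199a-2 and Mir199b and 84.1% between Mir199a-1 and Mir199a-2. The longest stretch in common with Mir214 was 7 nucleotides for each Mir199 gene. The predicted folding energy was -67.5 kcal/mol for the Mir214 precursor, -42.1 kcal/mol for Mir199b and -42.5 kcal/mol for Mir199a-2, all of 110 nucleotides, and -28.9 kcal/mol for the shorter Mir199a-1.

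**Figure D1:**
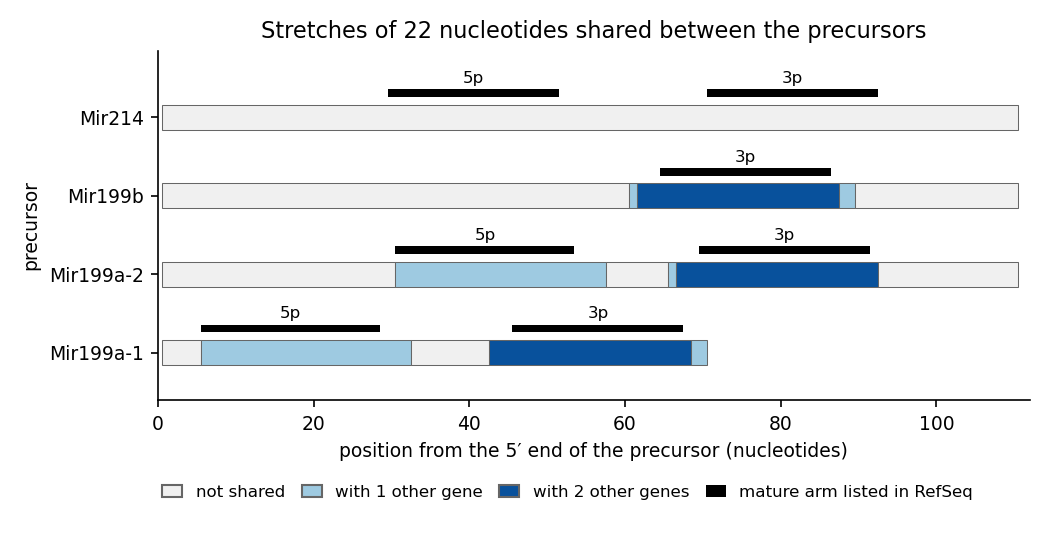
Precursors of the 4 genes drawn by position from the 5′ end in nucleotides; the fill gives how many other microRNA genes hold the same 22-nucleotide stretch, and black bars mark the mature arms listed in RefSeq. Mir214 has no shared stretch, Mir199b has shared bases around the 3p arm alone, and Mir199a-2 and Mir199a-1 have them over both arms.

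In GRCm38 coordinates, Mir214 (ENSMUSG00000065516.1) lies on chromosome 1 from 162223368 to 162223477 on the plus strand. Mir199a-2 (ENSMUSG00000070126.1) lies on the same strand of chromosome 1 from 162217814 to 162217923, with a gap of 5444 nucleotides to Mir214. Of the 6 transcripts of Dnm3os annotated in GENCODE M21, 2 are single exons that hold both microRNA genes whole. Other Dnm3os transcripts overlap part of a precursor with an exon, 3 of them for Mir199a-2 and 1 for Mir214. Both genes are thus exonic in Dnm3os and lie in an intron of Dnm3 on the opposite strand. Mir199b (ENSMUSG00000092807.1) lies on chromosome 2 from 32318460 to 32318569 on the plus strand, opposite an intron of Dnm1, between exons 15 and 16 in 8 of 10 overlapping transcripts. Mir199a-1 (ENSMUSG00000065547.1) lies on chromosome 9 from 21496495 to 21496564 on the minus strand, opposite an intron of Dnm2, between exons 15 and 16 in 5 of 10 overlapping transcripts. Dynamins are GTPases that cut membrane vesicles free. The tables held microRNA genes alone, so the levels of Dnm3os and the dynamins were not analysed here.

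**Figure D2:**
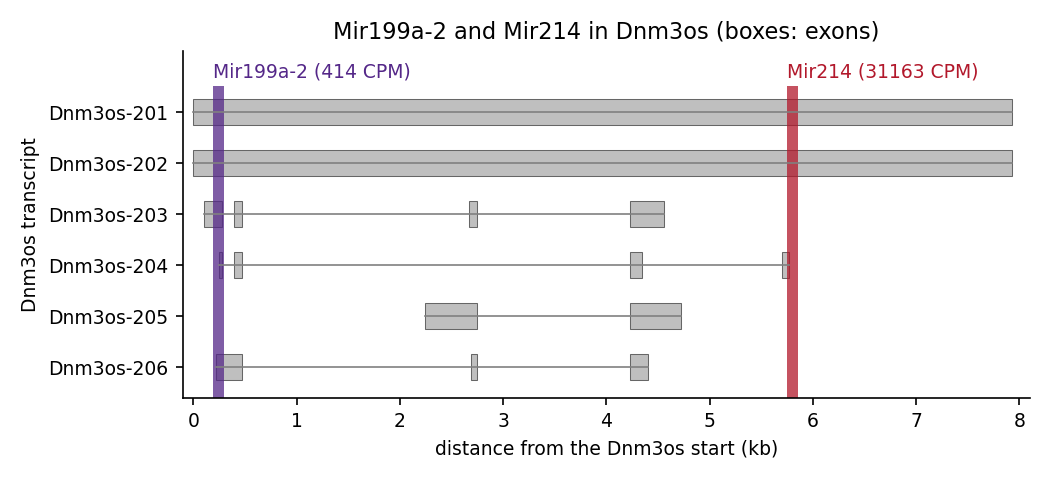
The 6 annotated Dnm3os transcripts (grey boxes are exons, lines are introns) by distance from the Dnm3os start in kb, with Mir199a-2 and Mir214 as coloured bands labelled with their mean level. The band of Mir214 (31163 CPM) lies downstream of that of Mir199a-2 (414 CPM), and both fall in the exon of the 2 single-exon transcripts.

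Mir214 was by far the most counted gene of the group. It lay at rank 9 of the 1973 microRNA genes by mean level, at rank 8 in replicate 2 and rank 10 in replicate 1. The 3 Mir199 genes lay at ranks 98, 132 and 236 by mean level. Levels are given in CPM, the own-strand count of a gene scaled to the sum over microRNA genes, which was 4144385 in replicate 2 and 4608816 in replicate 1. CPM is not scaled by length, and the mature arms compared here are 22 or 23 nucleotides long. All 4 genes reached at least 10 counts in both libraries, as did 16.9% of all 1973 genes, and all 4 also reached 100. The tables give no molecular identifiers, so intervals cover counting error only.

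Mir214 had 138323 counts in replicate 2 and 133425 in replicate 1. Its level was 33376 CPM in replicate 2 (95% exact Poisson interval 33200 to 33552) and 28950 CPM in replicate 1 (28795 to 29106), a mean of 31163 ± 3130 CPM (SD, n = 2). It gave 95.4% ± 0.473 of the counts of the 4 genes and 3.12% ± 0.313 of all microRNA counts. Mir214 was higher in replicate 2.

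Mir199b had 4226 counts in replicate 2 and 4823 in replicate 1. Its level was 1020 CPM in replicate 2 (interval 989 to 1051) and 1046 CPM in replicate 1 (1017 to 1076), a mean of 1033 ± 18.9 CPM (SD, n = 2). The 2 libraries had nearly the same level, and their counting intervals overlapped.

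Mir199a-2, the partner of Mir214 in Dnm3os, had 1736 counts in replicate 2 and 1884 in replicate 1. That is 419 CPM in replicate 2 (399 to 439) and 409 CPM in replicate 1 (391 to 428), with a mean of 414 ± 7.14 CPM (SD, n = 2). The intervals of the libraries overlapped here too.

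Mir199a-1 had 140 counts in replicate 2 and 159 in replicate 1. Its level was 33.8 CPM in replicate 2 (28.4 to 39.9) and 34.5 CPM in replicate 1 (29.3 to 40.3), with a mean of 34.1 ± 0.508 CPM (SD, n = 2). The 3 Mir199 genes together reached 1472 CPM in replicate 2 and 1490 CPM in replicate 1. Because their listed mature strands align to several genes, the counts of the Mir199 genes are lower limits. For Mir199b this concerns the 3p arm at stretches of 22 nucleotides, since bases 1 to 60 of its precursor hold none that is shared. At 18 nucleotides it has 2 shared blocks, so shorter reads outside the 3p arm may be lost too. Reads with several alignments numbered 2735942 in replicate 2 and 2865223 in replicate 1, and how many of them came from Mir199 is not given in the tables.

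**Figure D3:**
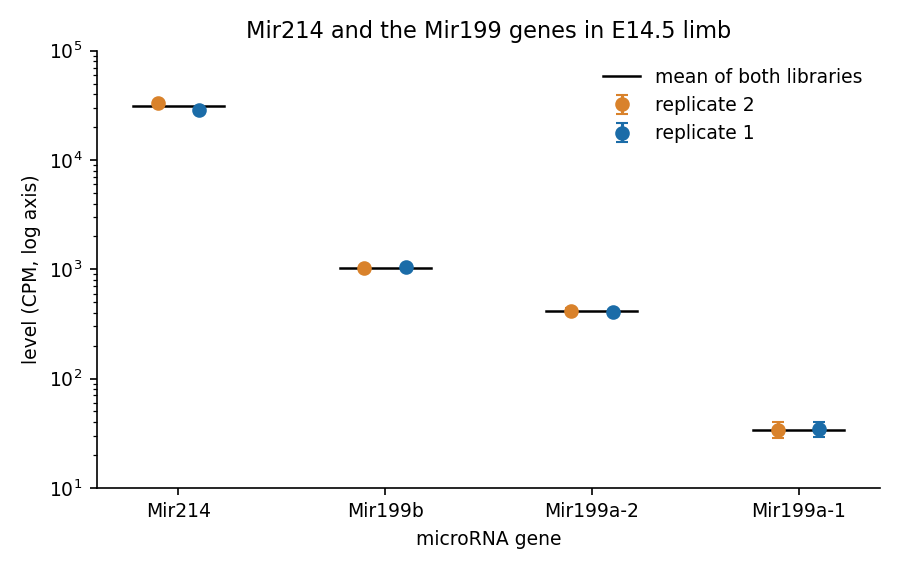
Level of each gene in CPM on a log axis; points are the 2 libraries with 95% exact Poisson intervals and lines are their means. Mir214 lies near 31163 CPM, Mir199b near 1033 CPM, Mir199a-2 near 414 CPM and Mir199a-1 near 34.1 CPM, and no library of one gene overlaps those of another.

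The order of the 4 genes was the same in both libraries. Mir214 exceeded Mir199b 32.7-fold in replicate 2 and 27.7-fold in replicate 1. It exceeded Mir199a-2, on the same host transcript, 79.7-fold in replicate 2 and 70.8-fold in replicate 1, and the Mir199 genes summed 21.1 ± 2.29-fold (SD, n = 2). Among the paralogs, Mir199b was 2.50 ± 0.0888 times Mir199a-2, and Mir199a-2 was 12.1 ± 0.390 times Mir199a-1. These folds compare singly aligned reads and are not measures of transcription, since the paralogs differ in how much of the precursor can be counted. How evenly different microRNAs are captured was not measured.

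The Mir199 genes were then set beside other genes whose every mature arm in RefSeq is also listed at another gene, 34 genes in all. Of these 34, 5 reached 10 counts in both libraries, and 3 of the 5 were Mir199 genes. The other two were Mirlet7c-2 with 106 ± 2.89 CPM and Mir3074-1 with 30.3 ± 1.60 CPM (SD, n = 2). Mir199b and Mir199a-2 had the highest levels of the 34, above Mirlet7c-2 in both libraries, and Mir199a-1 was at rank 4. The next gene below these 5, Mir219a-2, had 3 counts in replicate 2 and 9 in replicate 1. Mir199b is in this group because RefSeq lists its 3p arm alone. Its stretch that matches miR-199a-5p differs at 1 position, so reads over that position could be counted. Counts are per gene, and the part of such reads in its rank was not tested. Among 53 genes with some arms shared, 38 reached 10 counts in both libraries, or 71.7%, against 14.7% of the 34 genes. Whether sharing affects detection was not tested. Among 829 genes with no shared arm, the class of Mir214, 261 reached 10 counts in both libraries, or 31.5%. The median level of these 261 genes was 231 CPM, which Mir214 exceeded in both libraries. This comparison is a description of counts.

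In the order of all microRNA genes, 7 genes lay above Mir214 in both libraries. Mir203, a microRNA of differentiating epidermis, Mirlet7i, of the let-7 family that restrains proliferation, and Mir26b could not be ordered against Mir214. Mir214 ranged from 28950 to 33376 CPM, whereas Mir203 ranged from 31563 to 40413 CPM, Mirlet7i from 30125 to 31951 CPM and Mir26b from 28311 to 29018 CPM. Mirlet7g, at 39181 ± 376 CPM, was above Mir214 in both libraries. Mir199b overlapped no other gene: Mir467d (1158 ± 24.2 CPM) and Mir1193 (1131 ± 49.7 CPM) lay directly above it, and Mir28a (989 ± 43.0 CPM) and Mir300 (959.7 ± 57.7 CPM) directly below. Mir28a came within 1 CPM of it, with 1019 CPM in replicate 2, against 1020 CPM for Mir199b there (counting interval 989 to 1051). The rank of Mir199b is thus not resolved within counting error. Mir199a-2 overlapped 9 other genes and Mir199a-1 overlapped 2, so their ranks are approximate.

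Between the libraries, Mir214 differed by more than counting error under each of 3 scalings, Mir199b did so under 2 of them, and Mir199a-2 and Mir199a-1 did so under none. The level of Mir214 was 1.15-fold in replicate 2 over replicate 1, a log2 ratio of 0.21 (95% exact conditional interval 0.19 to 0.22). The log2 ratio was -0.04 for Mir199b (-0.10 to 0.02), 0.04 for Mir199a-2 (-0.06 to 0.13) and -0.03 for Mir199a-1 (-0.37 to 0.31). On this CPM scale all 3 intervals of the Mir199 genes contain 0. For Mir199b the ratio was -0.10 with TMM scaling (-0.16 to -0.04) and -0.11 with DESeq2 size factors (-0.17 to -0.05), and these intervals lie below 0. The sign for Mir199a-2 turned to -0.03 with TMM and -0.04 with DESeq2, within intervals that contain 0. Mir214 stayed above 0, at 0.14 with TMM (0.13 to 0.15) and 0.13 with DESeq2 (0.12 to 0.14). The intervals cover counting error only, and with 1 library on each side no test against biological spread was possible.

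A ratio of 2 genes within a library needs no scaling. The ratio of Mir214 to Mir199a-2 was higher in replicate 2 by 0.17 on the log2 scale (95% Wald interval 0.08 to 0.26), and the ratio of Mir214 to Mir199b by 0.24 (0.18 to 0.30). The ratio of Mir214 to Mir199a-1, which has few counts, differed by 0.24 with an interval that contains 0 (-0.09 to 0.56). For Mir199b over Mir199a-2 the difference was -0.07 (-0.18 to 0.04), and for Mir199a-2 over Mir199a-1 it was 0.07 (-0.28 to 0.41). The 2 genes on the Dnm3os transcript did not keep a fixed ratio of singly aligned counts within counting error. Both arms of Mir199a-2 are also listed at another gene, and those of Mir214 are not. Reads with several alignments numbered 0.660 per own-strand count in replicate 2 and 0.622 in replicate 1. The part of such reads in the difference was not tested. Whether the difference exceeds that between animals was not tested.

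The size of the log2 ratio of Mir214 ranked 76 among the 275 genes whose counts in both libraries summed to at least 100, and 27.3% of genes had a larger one. The median size over these genes was 0.11, and the middle of the distribution, from the 10th to the 90th percentile, ran from -0.26 to 0.27. All 4 genes lay inside this range. None of the 4 passed 1.5-fold, against 3 of the 275 genes (1.09%), and none passed 2-fold, against 0 of 275 (0%). Among 97 other genes of at least 1000 CPM, those nearest to Mir214 in log2 ratio were Mir15b (0.20, 1399 ± 137 CPM), Mir92-1 (0.20, 1803 ± 175 CPM) and Mir125b-1 (0.19, 1234 ± 118 CPM). This likeness rests on 2 libraries.

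**Figure D4:**
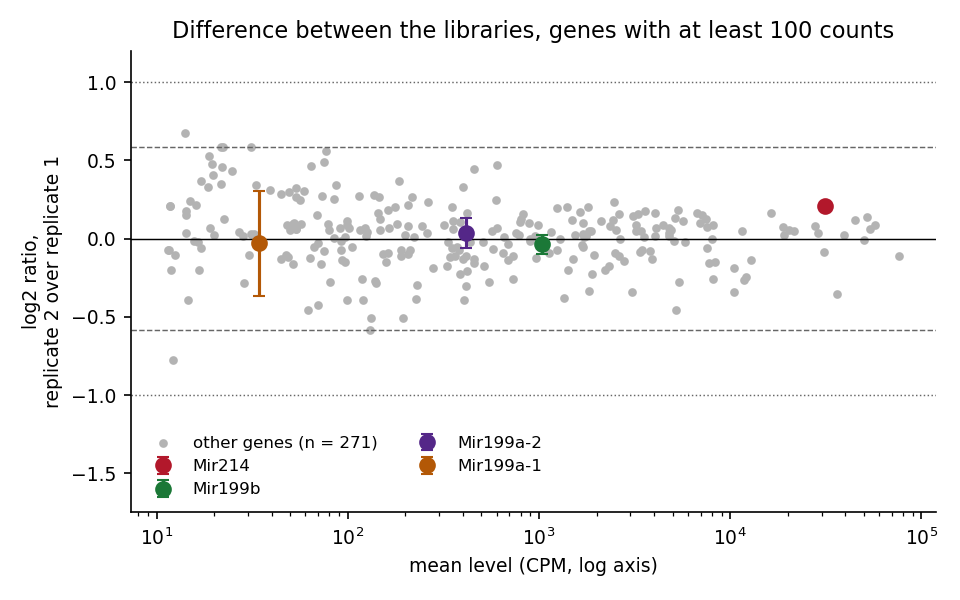
Log2 ratio of replicate 2 over replicate 1 against mean level in CPM (log axis) for the 275 genes with at least 100 counts; coloured points are the 4 genes with 95% counting intervals, grey points the other 271, and dashed and dotted lines mark 1.5-fold and 2-fold. Mir214 lies at 0.21 and the Mir199 genes lie between -0.04 and 0.04 on the CPM scale, where Mir199a-2 is above 0 but falls to -0.03 with TMM.

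The summed level of the 4 genes was compared with lists of microRNAs of other limb tissues. It was 34848 CPM in replicate 2 and 30440 CPM in replicate 1, against 63162 and 59560 CPM for the cartilage list, led by Mir140, a microRNA of chondrocytes. The ratio of the 4 genes to cartilage was 0.531 ± 0.0287 (SD, n = 2), below 1 in both libraries. Against the surface epithelium list, led by Mir203 and Mir205, a microRNA of basal epithelial cells, the ratio was 0.646 in replicate 2 and 0.473 in replicate 1. The epithelial list itself was lower in replicate 2, with 53931 CPM there and 64405 CPM in replicate 1.

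The 4 genes exceeded the smooth muscle list, Mir143 and Mir145a, which are cut from a shared transcript, 4.31-fold in replicate 2 and 3.39-fold in replicate 1. The order held for Mir214 and not for the Mir199 genes, which summed to 1481 ± 12.3 CPM, against 8368 ± 612 CPM for Mir143 alone (SD, n = 2). Mir143 was lower in replicate 2 (log2 ratio -0.15), opposite in sign to Mir214. The Mir29 genes, which repress collagens and other matrix mRNAs, summed to 149 CPM in replicate 2 and 143 CPM in replicate 1, so that the 4 genes exceeded them 223 ± 15.7-fold (SD, n = 2). Of the 4 Mir29 genes, 2 reached 10 counts in both libraries. The others, Mir29b-1 and Mir29b-2, share a mature strand, so their counts are lower limits like those of Mir199, and the fold compares singly aligned reads.

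**Figure D5:**
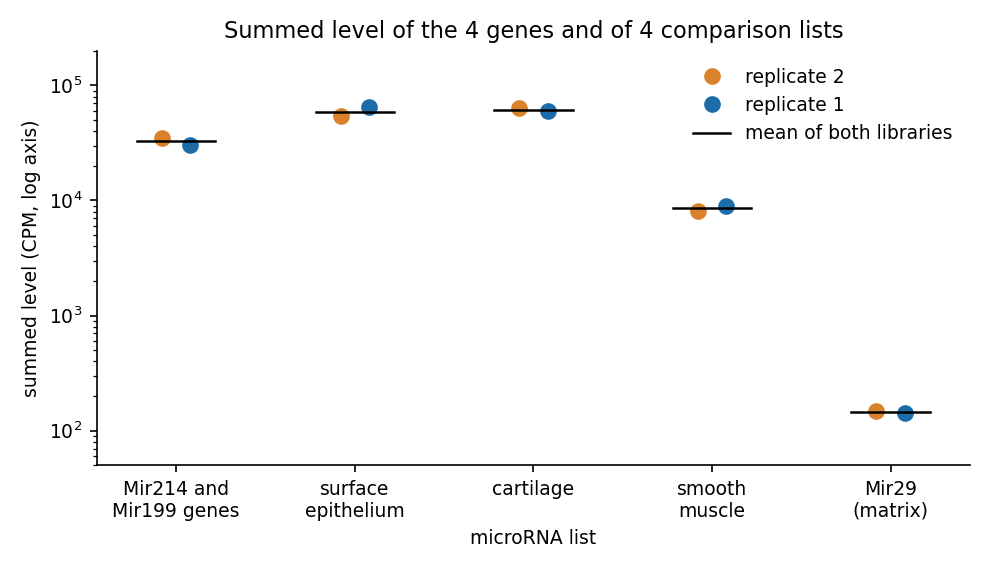
Summed level in CPM (log axis) of the 4 genes and of the lists of surface epithelium, cartilage, smooth muscle and matrix microRNAs; points are the 2 libraries and lines are means. The 4 genes lie at 32644 CPM on average, below cartilage (61361) and surface epithelium (59168) and above smooth muscle (8531) and Mir29 (146) in both libraries.

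The labelled tissue was checked by markers. All 6 listed microRNAs of the limb Hox clusters were detected, with 68182 CPM in replicate 2 and 65414 CPM in replicate 1. Of the other marker lists, skeletal muscle differed most between the libraries: with 4 of 8 genes detected, it summed to 4789 CPM in replicate 2 and to 6565 CPM in replicate 1, a log2 ratio of -0.46. In the same order, the blood list, with 6 of 6 detected, summed to 1073 and 1146 CPM, and Mir126a, a microRNA of endothelium, had 19268 and 18963 CPM, with log2 ratios of -0.10 and 0.02. No marker in the tables was at 0 in both libraries. Reads with several alignments were given to no gene, so a low count in these lists does not show absence. Of the limb Hox genes, 2 have a mature arm that is also listed at another gene. Among the 6 skeletal muscle genes with arms in RefSeq, 0 have such an arm. The part of tissue makeup in the higher Mir214 level of replicate 2 was not tested. In whole limbs, fewer cells of a type and less RNA per cell cannot be told apart, and the mesenchymal origin of the 4 genes could not be checked in a table of microRNAs without other markers.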

How the data were processed

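The authors deposited raw read counts per microRNA gene for each library. Reads had been aligned to mm10 and counted on GENCODE M4, per the authors' read-me; the aligner and counter are not given in the sources used here. Columns were taken as either-strand, own-strand and opposite-strand counts, judged from the values, and own-strand counts were used. Reads with several alignments made up 32.2% ± 0.558 of reads (SD, n = 2), unmapped reads 13.2% ± 0.628 and reads on no gene 4.25% ± 0.0792; they were left out of the library sums.

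Names and positions came from GENCODE M21, in which 1894 of 1973 identifiers and all 4 members matched, and sequences from RefSeq GRCm38.p6. Log2 ratios carried a prior count of 0.5. Precursors were folded with RNAfold and aligned with Biopython 1.88. Scaling alternatives used edgeR 4.0.16 (TMM) and DESeq2 1.42.0 in R 4.3.3; other steps ran in Python 3.11.15 with scipy 1.17.1. Intervals were checked on simulated Poisson counts, which hold counting error only, so the check does not cover spread between animals or amplification. No test across genes was made, since 1 library stands on each side.

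Members, lists and alternatives were chosen with earlier results of these data known. Named genes followed a rule: the members, the 2 genes above and below Mir214 and Mir199b in level, the 3 nearest log2 ratios among genes of at least 1000 CPM, seed mates, host genes, leading list members and the highest genes with every arm shared. Gm23363, Mir7024, Mir6992 and Mir126a were named outside this rule, after their values were seen.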

Additional observations from a re-analysis of the deposited data

How the results depend on the processing

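Of 36 alternatives that keep both libraries, 15 moved a value. The other 21 left it within its reported spread or interval or, for a count of items, within 1.5 times. A reversal could be recorded only for the log2 ratio of Mir214, whose interval excluded 0. The sign of that ratio held under TMM, DESeq2 size factors and a prior count of 1. With reads of several alignments in the total, Mir214 was at 18978 CPM, Mir199b at 629.8 CPM and the 4 genes together at 19881 CPM; with all reads in the total they were at 15657, 519.8 and 16402 CPM, lower because the divisor is larger. Counts on either strand put Mir199b at 1001 CPM. The log2 ratio of Mir214 between the libraries was 0.14 with TMM and 0.13 with DESeq2 size factors, and that of Mir199b was -0.10 and -0.11, with counting intervals that no longer contain 0, since these scalings move all genes by -0.06 and -0.07. The rank of Mir214 by size of this ratio was 172 of 407 genes with at least 10 counts and 411 of 687 without a filter, as more low genes entered. With stretches of 18 nucleotides the shared part was 50% of Mir199a-2 and 42.7% of Mir199b. With seeds of bases 2 to 7, the mature microRNAs with a member's seed numbered 10, against 8, the members' own arms included. Those outside the members numbered 3, against 1. Leaving out either replicate returns the value of the other library, such as 27.7 or 32.7 for the ratio of Mir214 to Mir199b, and says nothing about stability. No paired analysis was possible because the study has 1 group. Depth limits Mir199a-1 most, with 140 and 159 counts.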

Other observations

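Reads on the strand opposite Mir214 numbered 1 in replicate 2 and 3 in replicate 1, and the 3 Mir199 genes had none in either library. Neither count exceeds the 3 that a count of 0 allows. Opposite-strand reads over all genes numbered 129462 in replicate 2 and 155134 in replicate 1.

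Gm23363, a microRNA gene that GENCODE places 116 nucleotides from Mir199b on the same strand, had 5 counts in replicate 2 and 3 in replicate 1, against 4226 and 4823 for Mir199b. No other microRNA gene of the tables lay within 10000 nucleotides of Mir199b, and none within that distance of Mir199a-1.

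Where the seed was shortened to bases 2 to 7, Mir7024 and Mir6992 also matched an arm of Mir214, and both had 0 counts in either library, as had Mir761. No other gene that RefSeq lists with a seed of Mir214, long or short, had a counted read.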
